A study of Homo sapiens with 12 samples.

Results

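The acinar digestive enzyme genes followed here were 9 named genes of the exocrine pancreas, measured in 12 bulk RNA-seq libraries of islet-like cells: the trypsinogens PRSS1 and PRSS2, the trypsin inhibitor SPINK1, the chymotrypsinogens CTRB1 and CTRB2, the procarboxypeptidases CPA1 and CPB1, pancreatic lipase PNLIP and its cofactor colipase, CLPS. All 9 were found by symbol among the 60624 genes of each count table. The cells were islets derived from expandable pancreatic progenitors (ePP) of MEL1, a human embryonic stem cell line, and were collected on day 8 in a differentiation medium called R6. One experiment compared 3 libraries labelled as knockout of NKX2-2, a transcription factor of the endocrine lineage, with 3 wild-type libraries. The other compared 3 libraries labelled as knockout of CLEC16A, a gene of endosomal trafficking and mitophagy, with its own 3 wild-type libraries. All 4 groups shared the same media. The progenitors had been kept on feeder cells with EGF, bFGF, the compound 616452 and I-BET151. R6 held B27, BSA, zinc sulfate, heparin, 616452, T3, LDN-193189, Compound E, vitamin C and forskolin.

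Acinar cells make digestive enzymes mostly as inactive zymogens and store them in granules until meals trigger their release into the duct. In the intestine enteropeptidase cuts trypsinogen to trypsin, and trypsin then activates the other zymogens. SPINK1 blocks trypsin that becomes active too early, inside the gland. These genes are high in acinar cells and are driven there by a complex that contains PTF1A and RBPJL. Endocrine and acinar cells both descend from the pancreatic progenitor, so these transcripts are used to follow exocrine gene expression in islet cultures.

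Libraries held 16157481 to 20649976 counts in the NKX2-2 experiment and 31364272 to 33763795 in the CLEC16A experiment, so that 3 counts corresponded to 0.0889 to 0.186 CPM (counts scaled to library size). The transcripts of the targeted genes gave no firm check of the labels. NKX2-2 was at 91.9, 68.0 and 68.3 CPM in the NKX2-2 knockout libraries and at 95.4, 96.7 and 93.4 in their wild type (log2 fold change -0.32 ± 0.12, SE; edgeR adjusted p = 0.061). CLEC16A was at 35.4, 38.0 and 36.8 CPM in the CLEC16A knockout libraries and at 36.2, 30.1 and 30.8 in their wild type (0.18 ± 0.09; edgeR adjusted p = 0.0949). NKX2-2 fell in the CLEC16A knockout libraries, at 65.7, 65.8 and 58.9 CPM against 113.5, 131.0 and 118.9 in their wild type (-0.93 ± 0.07; edgeR adjusted p = 3.53e-10). Knockout therefore means here a library labelled so, and the labels name no clones or separate cultures. Effects of the knockout and differences between lines cannot be told apart, and a p-value covers only how these libraries scatter, which could be technical. In bulk RNA, fewer cells of a type and less RNA per cell cannot be told apart either.

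The 2 trypsinogens on chromosome 7 are near copies of each other, which bears on how reads can be assigned to them. In the GENCODE 29 annotation of GRCh38, PRSS1 (ENSG00000204983) spans chr7:142749468-142753076 and PRSS2 (ENSG00000275896) spans chr7:142760398-142774564, both on the plus strand. Their coding sequences are 741 bases long and differ at 53 positions, an identity of 92.9%. A further human trypsinogen, PRSS3 on chromosome 9, differs from PRSS1 at 63 positions and from PRSS2 at 50. The first 120 coding bases are shown because they hold the signal peptide and the activation peptide; capitals mark the 12 positions at which the 3 genes are not all alike.
PRSS1: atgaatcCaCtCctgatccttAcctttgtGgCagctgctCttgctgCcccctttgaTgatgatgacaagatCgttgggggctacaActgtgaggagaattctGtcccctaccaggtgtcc
PRSS2: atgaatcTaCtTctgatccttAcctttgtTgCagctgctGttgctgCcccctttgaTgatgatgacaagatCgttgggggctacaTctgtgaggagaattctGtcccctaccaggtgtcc
PRSS3: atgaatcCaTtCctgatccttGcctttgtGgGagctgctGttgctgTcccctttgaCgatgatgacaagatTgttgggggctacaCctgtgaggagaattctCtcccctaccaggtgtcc
The longest stretch without a difference between PRSS1 and PRSS2 is 68 bases long. It is shown with 16 bases on each side, as coding bases 171 to 270, with differing bases in capitals.
PRSS1: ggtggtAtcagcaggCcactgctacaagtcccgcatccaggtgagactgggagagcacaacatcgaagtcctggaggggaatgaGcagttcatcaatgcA
PRSS2: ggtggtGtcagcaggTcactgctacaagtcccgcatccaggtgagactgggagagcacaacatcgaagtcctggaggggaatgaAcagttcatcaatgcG
Of 692 windows of 50 coding bases in PRSS1, 24 (3.47%) occurred unchanged in PRSS2, and of 642 windows of 100 bases none did. The chymotrypsinogens were closer: CTRB1 and CTRB2, both of 789 coding bases, differ at 26 positions and share one run of 581 bases, so that 482 of 690 windows of 100 bases (69.9%) were alike. For the read length, the read counter and its treatment of reads with several matches, nothing was stated (not given in the sources used here).

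**Figure D1:**
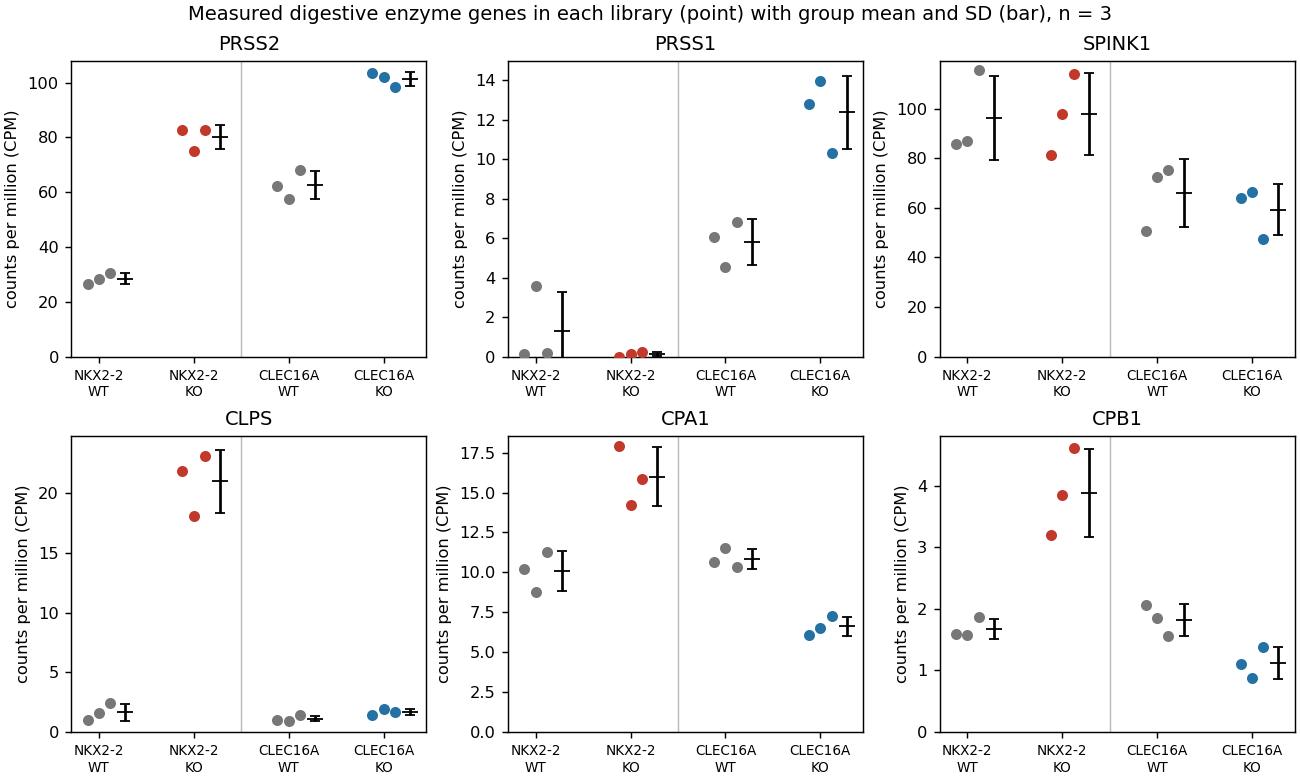
CPM of the 6 members with enough counts for a test in at least 1 experiment, on linear axes that start at 0 and differ between panels; points are libraries, bars are the group mean ± SD (n = 3, cut off at 0). PRSS2, CLPS, CPA1 and CPB1 lie higher in all NKX2-2 knockout libraries than in their wild type, and PRSS1 counts in the NKX2-2 experiment are near 0 except in 1 wild-type library.

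In the NKX2-2 experiment 4 of the 5 members that could be tested rose in the knockout libraries and none fell: CLPS, PRSS2, CPA1 and CPB1. SPINK1 did not pass the test, and PRSS1, CTRB1, CTRB2 and PNLIP had too few counts for it. Of all 17436 genes tested, 33.4% passed (edgeR quasi-likelihood test, Benjamini-Hochberg adjusted p under 0.05), 16.6% as higher and 16.8% as lower. The median log2 fold change was 1.22 over the 5 tested members and 0.03 over all genes. In the CLEC16A experiment 2 of 6 tested members rose (PRSS1 and PRSS2), 1 fell (CPA1) and 3 did not pass. There 45.0% of 19958 genes passed, 23.7% as higher and 21.3% as lower, so that the 3 of 6 members called were near the share of all genes. The median was 0.22 over the 6 members and -0.01 over all genes. The plot of fold changes sets both experiments side by side.

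**Figure D2:**
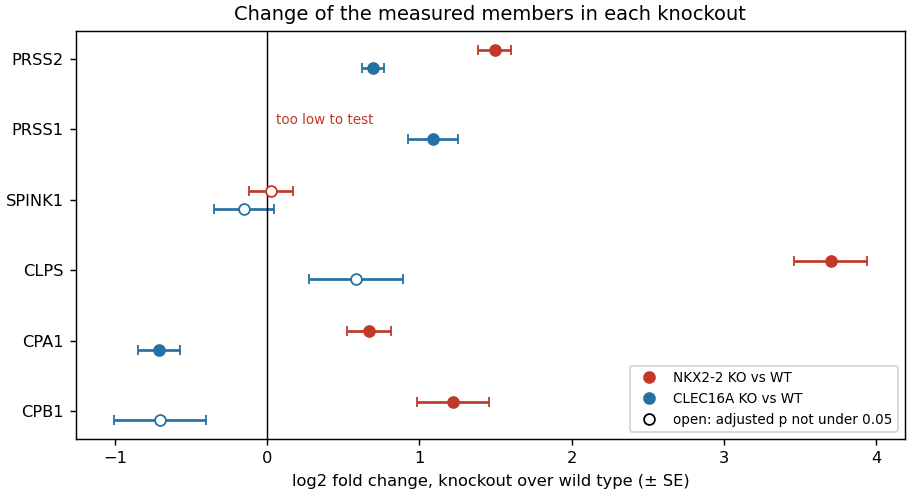
Log2 fold change of knockout over wild type with its SE from edgeR for the 6 measured members, in the NKX2-2 (red) and CLEC16A (blue) experiments; open points had an adjusted p that was not under 0.05. CLPS has the highest value, 3.70 in the NKX2-2 experiment, and CPA1 and CPB1 lie on opposite sides of 0 in the 2 experiments.

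Among the zymogens of trypsin, PRSS2 (anionic trypsinogen) rose in both experiments. It was at 82.7, 75.1 and 82.6 CPM in the NKX2-2 knockout libraries and at 26.6, 28.3 and 30.5 CPM in their wild type. The groups lay far apart, and each had a narrow spread. The fitted change was 2.82-fold (log2 1.49 ± 0.11, SE; edgeR adjusted p = 4.23e-07). The CLEC16A experiment had PRSS2 at 103.6, 102.0 and 98.5 CPM in knockout and at 62.3, 57.5 and 68.0 CPM in wild type. Here too all knockout libraries lay above all wild-type ones, by 1.62-fold (log2 0.70 ± 0.07; edgeR adjusted p = 3.27e-08). The effect was larger in the NKX2-2 than in the CLEC16A experiment by 0.81 ± 0.13 on the log2 scale (interaction in an edgeR fit of all 12 libraries, adjusted p = 2.85e-05). In that fit 38.2% of 20494 genes passed as different between the experiments.

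PRSS1 (cationic trypsinogen) rose in the CLEC16A knockout libraries, at 12.8, 13.97 and 10.3 CPM against 6.08, 4.53 and 6.83 CPM in their wild type. All knockout libraries lay above all wild-type ones. The change was 2.13-fold (log2 1.09 ± 0.16; edgeR adjusted p = 8.02e-06). In one fit with the dispersion shared over all 12 libraries, the value was 1.10 and its edgeR adjusted p was 0.206.

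In the NKX2-2 experiment the deposited counts and the deposited TPM (transcript abundance scaled by length and depth) of PRSS1 went in different directions. The knockout libraries held 0, 3 and 4 counts and the wild-type libraries 3, 71 and 3, so that 71 of the 84 counts came from wild-type replicate 2. The TPM of the same libraries was 5.75, 6.85 and 8.50 in knockout and 2.55, 4.30 and 2.65 in wild type, with no overlap between groups. On log2(TPM + 1), limma gave a change of 0.96 ± 0.18 (adjusted p = 0.00324; 28.4% of 17017 genes passed that test). Of the fits on the counts, 3 kept the gene and none of these passed. They gave -3.38 with DESeq2 (adjusted p = 0.154), -3.31 with edgeR without a filter on low counts (adjusted p = 0.376) and -3.28 with one edgeR fit of 12 libraries (adjusted p = 0.129).

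The share of PRSS1 among the counts of PRSS1 and PRSS2 separates the libraries. It was 0%, 0.199% and 0.279% in the NKX2-2 knockout libraries, and 0.540%, 11.3% and 0.552% in their wild type. The 95% Wilson interval of the 11.3% was 9.03% to 13.98%, which covers counting error only. Every CLEC16A library lay between 7.30% and 12.1%, a range that contains the 1 high NKX2-2 library. In TPM the share was 4.59% to 10.2% in the NKX2-2 and 7.06% to 11.8% in the CLEC16A libraries, with wild-type replicate 2 again the highest of its experiment. Over its libraries PRSS1 had 2.74 counts per TPM unit in the NKX2-2 tables and 14.01 in the CLEC16A tables, a ratio of 0.196. Within the NKX2-2 experiment wild-type replicate 2 had 16.51 and the other libraries 0 to 1.175. The median ratio of 11060 genes was 1.53, and PRSS2 was at 0.941. Which step of the processing set the PRSS1 counts apart was not tested.

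**Figure D3:**
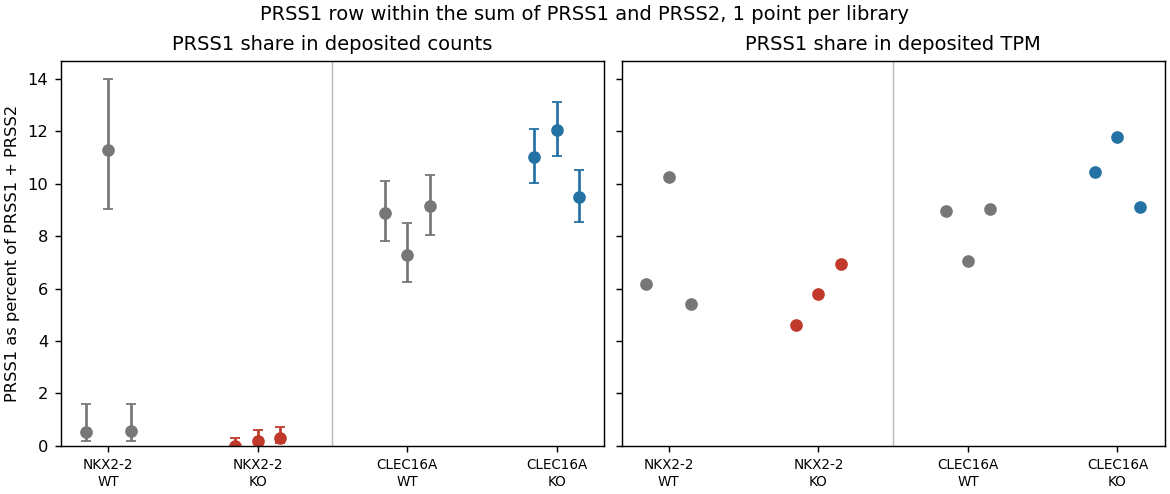
PRSS1 as percent of PRSS1 plus PRSS2 in each library, from the counts (left, with 95% Wilson intervals for counting error) and from TPM (right, no interval). In the counts 5 of 6 NKX2-2 libraries lie under 1% and 1 at 11.3%; in TPM all 12 libraries lie between 4.59% and 11.8%.

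Adding the rows of the chromosome 7 trypsinogens removes the question of how counted reads were split between them, though not that of reads left uncounted. The sum of PRSS1, PRSS2 and the pseudogenes PRSS3P1 and PRSS3P3 rose 2.70-fold in the NKX2-2 knockout (log2 1.43 ± 0.11; edgeR adjusted p = 7.52e-07). It rose 1.66-fold in the CLEC16A knockout (log2 0.73 ± 0.07; edgeR adjusted p = 1.9e-08). The pseudogenes had 0 counts in all libraries but 1 CLEC16A wild-type library, where each had 2. The difference between the knockout effects on the PRSS1 row alone was -4.38 ± 1.58 and missed the threshold (edgeR adjusted p = 0.0579). It passed in 5 of 19 alternative fits, and without NKX2-2 wild-type replicate 2 it was -1.34 (edgeR adjusted p = 0.282).

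PRSS3, which encodes mesotrypsin, a trypsin form that resists inhibitors, had the largest changes of the trypsinogens, in opposite directions. It had 0, 2 and 2 counts in the NKX2-2 knockout libraries and 29, 14 and 40 in their wild type. Over the counts of each group the wild type was 19.3 times higher, with an exact 95% interval of 7.27 to 72.6 for counting error (fitted log2 fold change -4.17; edgeR adjusted p = 0.000455). The CLEC16A libraries held 361, 390 and 353 counts in knockout and 11, 2 and 9 in wild type. This was 48.4 times higher in knockout with an interval of 31.8 to 77.5 (log2 5.72; edgeR adjusted p = 9.47e-14). Its TPM separated the same groups, at 29.7 to 35.2 against 0.581 to 0.820 in the CLEC16A experiment. The difference between the experiments also passed (edgeR adjusted p = 1.46e-10). PRSS3 shares a run of 63 coding bases with PRSS2 and was not part of the summed rows. How reads that match PRSS3 and the chromosome 7 trypsinogens were assigned was not tested. PRSS3 overlaps an antisense gene, UBE2R2-AS1, which had 18 counts in the NKX2-2 and 72 in the CLEC16A libraries, and whether reads were counted by strand is unknown.

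SPINK1, the inhibitor that acts on trypsin within the gland (ENSG00000164266, chr5:147824568-147831786, minus strand), did not pass the test in either experiment. It was at 81.2, 98.1 and 114.2 CPM in the NKX2-2 knockout libraries and at 85.9, 87.2 and 115.8 CPM in their wild type. The groups overlapped over most of their range, with a log2 fold change of 0.02 ± 0.15 (edgeR adjusted p = 0.913). CLEC16A knockout libraries had 64.1, 66.4 and 47.6 CPM and their wild type 50.5, 72.4 and 75.2 CPM. The groups overlapped here too (log2 -0.15 ± 0.20; edgeR adjusted p = 0.587). Without CLEC16A wild-type replicate 1 the value was -0.32 and passed (edgeR adjusted p = 0.0356). The effects differed between the experiments by 0.18 ± 0.26 (edgeR adjusted p = 0.618). PRSS2 thus rose where its inhibitor did not pass the test, and the ratio of both was not itself tested.

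Colipase, which anchors pancreatic lipase to fat droplets coated with bile salts, had the largest change of the members. CLPS (ENSG00000137392, chr6:35794982-35797344, minus strand) was at 21.9, 18.1 and 23.1 CPM in the NKX2-2 knockout libraries and at 0.961, 1.57 and 2.37 CPM in their wild type. These are 363, 361 and 401 counts against 20, 31 and 42. The lowest knockout library stood several times above the highest wild-type library. The fitted rise was 13.01-fold (log2 3.70 ± 0.24; edgeR adjusted p = 1.5e-07). Under CLEC16A knockout CLPS was at 1.422, 1.89 and 1.64 CPM in knockout and at 1.00, 0.935 and 1.37 CPM in wild type. The groups did not overlap, but with 31 to 61 counts a library the change of 0.58 ± 0.31 did not pass (edgeR adjusted p = 0.138). The NKX2-2 effect exceeded the CLEC16A effect by 3.12 ± 0.36 (edgeR adjusted p = 2.72e-07).

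PNLIP, the lipase that colipase serves (ENSG00000175535, chr10:116545931-116567855, plus strand), had 0 counts in all 12 libraries. At these depths 0 counts allow up to 0.186 CPM in the shallowest library and up to 0.0889 CPM in the deepest. CLPS was therefore measured in cultures in which its enzyme was not detected. Of 13 other lipase genes, 10 were tested in the NKX2-2 experiment, where 1 rose (LPL, lipoprotein lipase, log2 0.92, and 0.61 with an edgeR adjusted p of 0.0533 without knockout replicate 3) and 4 fell, MGLL by 1.80, LIPH by 1.69 and LIPC by 0.85 among them. In the CLEC16A experiment 7 of 9 tested rose and none fell, with LIPH at 2.78, MGLL at 1.86, LIPG at 1.25 and LIPC at 1.14.

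The carboxypeptidases trim amino acids from the carboxyl end of peptides, CPA1 those with aromatic or aliphatic and CPB1 those with basic side chains. CPA1 (ENSG00000091704, chr7:130380339-130388114, plus strand) was at 17.9, 14.2 and 15.9 CPM in the NKX2-2 knockout libraries and at 10.2, 8.75 and 11.3 CPM in their wild type. All knockout libraries lay above the wild type, by 1.59-fold (log2 0.67 ± 0.15; edgeR adjusted p = 0.00344). The CLEC16A libraries were at 6.04, 6.52 and 7.26 CPM in knockout and at 10.6, 11.5 and 10.3 CPM in wild type. Here all knockout libraries lay below the wild type (log2 -0.71 ± 0.14; edgeR adjusted p = 0.000226). The effects differed by 1.39 ± 0.20 (edgeR adjusted p = 6.33e-06).

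CPB1 (ENSG00000153002, chr3:148791102-148860187, plus strand) went the same way at lower counts. It was at 3.19, 3.85 and 4.62 CPM in the NKX2-2 knockout libraries and at 1.59, 1.57 and 1.86 CPM in their wild type. The rise was 2.33-fold (log2 1.22 ± 0.24; edgeR adjusted p = 0.00144). Its CLEC16A values were 1.10, 0.870 and 1.38 CPM in knockout and 2.07, 1.84 and 1.55 CPM in wild type. The groups did not overlap, yet the value of -0.70 ± 0.30 did not pass (edgeR adjusted p = 0.0652). Over 17 alternative fits it ranged from -1.04 to -0.55 and passed in 6, with adjusted p from 0.0217 to 0.197. The difference between the experiments was 1.93 ± 0.37 (edgeR adjusted p = 0.000198). Both genes that overlap CPB1 on the opposite strand, HMGB1P30 and AC092979.1, had 0 counts.

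The other carboxypeptidases followed did not share 1 pattern. Of the 16 listed, 12 were tested in the NKX2-2 experiment, where 6 rose and 2 fell, and 11 in the CLEC16A experiment, where 5 rose and 4 fell. AEBP1 and CPXM1, both secreted into the extracellular matrix, rose by 1.19 and 1.18 in the NKX2-2 knockout and fell by 1.40 and 1.12 in the CLEC16A knockout. CPXM2 had the reverse order, -0.88 and 2.00. CPA4 was at 1.01 in the NKX2-2 experiment, and CPQ, a secreted peptidase found in plasma, at 1.75 in the CLEC16A experiment.

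The chymotrypsinogens were too low to measure. CTRB1 (ENSG00000168925, chr16:75219000-75226338, plus strand) had 0, 0 and 1 counts in the NKX2-2 knockout libraries and 1, 0 and 0 in their wild type. Its CLEC16A counts were 6, 6 and 0 in knockout and 0, 6 and 0 in wild type. CTRB2 (ENSG00000168928, chr16:75204096-75207185, minus strand) had at most 2 counts in any library. Its counts were 2, 0 and 0 in NKX2-2 knockout, 1, 0 and 0 in its wild type, 0 in each CLEC16A knockout library, and 1, 0 and 2 in its wild type. Since most of their coding sequence is shared, even these counts are uncertain between the pair. CTRB1 also overlaps the pseudogene AC009078.2, which had 5 counts in the NKX2-2 and 20 in the CLEC16A libraries.

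**Figure D4:**
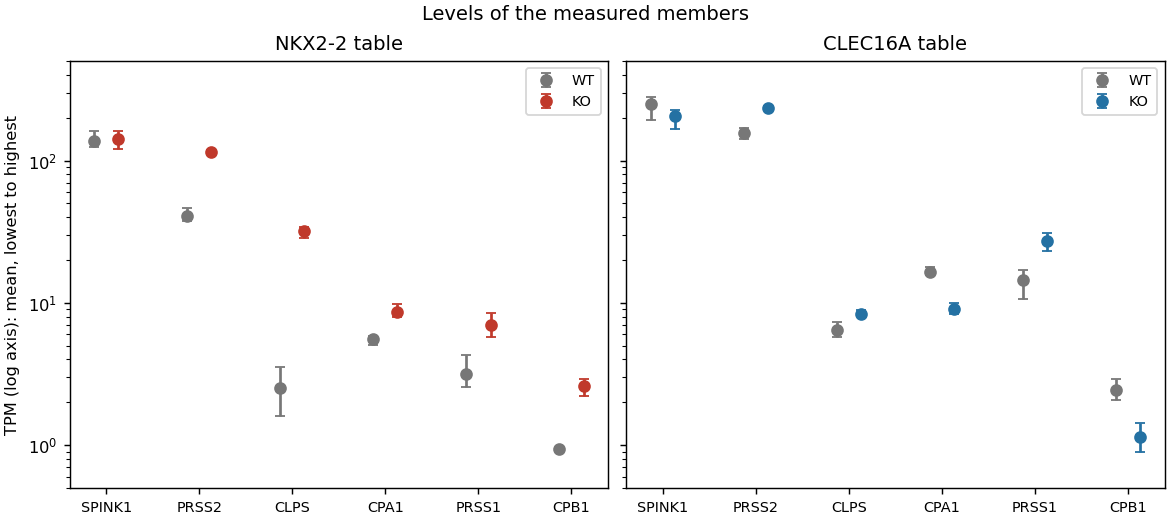
TPM of the 6 measured members by group on a logarithmic axis; points are group means and bars run from the lowest to the highest of 3 libraries. SPINK1 and PRSS2 lead in every group and CPB1 is the lowest; levels are not compared between the panels, because the tables list different shares of the TPM total.

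Levels of different genes can be compared only per length, which TPM provides. The genes listed in the NKX2-2 table made up 41.4% to 47.2% of the TPM total of a library, against 99.7% to 99.8% for CLEC16A, so the order is read within a table. In NKX2-2 wild type SPINK1 came first (136.8 ± 21.3 TPM, SD, n = 3), then PRSS2 (40.9 ± 4.63), CPA1 (5.57 ± 0.475), PRSS1 (3.17 ± 0.982), CLPS (2.52 ± 0.959) and CPB1 (0.933 ± 0.0242). PRSS1 and CLPS overlapped there. In the NKX2-2 knockout SPINK1 (141.6 ± 20.2) and PRSS2 (115.0 ± 4.11) stood closer, and CLPS came next (32.2 ± 3.03) ahead of CPA1 (8.58 ± 1.06), PRSS1 (7.04 ± 1.39) and CPB1 (2.60 ± 0.362). CPA1 and PRSS1 overlapped. The place of PRSS1 in both NKX2-2 groups is uncertain, because its counts did not follow its TPM. In knockout replicate 1 it had 5.75 TPM at 0 counts. In CLEC16A wild type the order was SPINK1 (249.5 ± 48.6), PRSS2 (157.2 ± 14.8), CPA1 (16.5 ± 1.31), PRSS1 (14.5 ± 3.31), CLPS (6.39 ± 0.806) and CPB1 (2.44 ± 0.425), with CPA1 and PRSS1 overlapping. In the CLEC16A knockout PRSS2 (233.9 ± 6.55) came before SPINK1 (206.5 ± 35.2), by ranges that touched neither each other nor PRSS1 (27.3 ± 3.97). CPA1 (9.03 ± 0.884), CLPS (8.35 ± 0.433, overlapping CPA1) and CPB1 (1.15 ± 0.276) followed.

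Members that moved together across libraries were described by Pearson's r of log2 CPM, centred on each experiment, over 12 libraries that share 2 table sources and the knockout contrast. CLPS and PRSS2 had r = 0.951 and CPA1 and CPB1 had r = 0.865. CLPS with CPB1 reached 0.696, PRSS2 with CPB1 0.509, CLPS with CPA1 0.539 and PRSS2 with CPA1 0.294. SPINK1 stayed between -0.021 and 0.152 with each of the other 4. Among 13397 genes the patterns most like CLPS were FRZB, a secreted Wnt antagonist (0.978), CLU, clusterin (0.976), and FAM107B (0.975). Those most like PRSS2 were RBP4, the plasma retinol carrier (0.983), RAB31 (0.980) and ANXA1, annexin A1 (0.978). For CPA1 they included TMEM59L (0.968) and HOXB5 (0.965). They were for CPB1 PKIA, a protein kinase A inhibitor (0.981), WDR19 (0.976) and AP1S2 (0.975), and for SPINK1 EXOSC5 (0.926), BOLA3 (0.908) and COX14 (0.889). Pearson's r does not measure the size of a change. With NKX2-2 and CLEC16A knockout the log2 changes were 3.70 and 0.58 for CLPS and 2.37 and 0.62 for FRZB. They were 0.40 and 0.02 for CLU and 1.17 and 0.15 for FAM107B.

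The start regions of the 2 trypsinogens are shown because both genes rose in the CLEC16A knockout. In the NKX2-2 knockout PRSS2 rose, but PRSS1 rose in TPM only. Its counts there, 0, 3 and 4 against 3, 71 and 3, were too few for the main test and did not rise. RefSeq (GRCh38.p14) held start regions for 7 of the 9 members: PRSS1, PRSS2, CPA1, CPB1, CTRB2, SPINK1 and PNLIP. The sequences run from 250 to 61 bases before the start, at chr7:142749222-142749411 for PRSS1 and chr7:142770720-142770909 for PRSS2, both on the plus strand. In GENCODE 29 the PRSS2 gene starts further upstream, at 142760398, so the PRSS2 stretch lies within it. The full 250 bases overlapped an annotated untranslated region in each of these members but PNLIP. Capitals mark the E-box CACCTG and the RBPJ site TTCCCA, the letters of which a PTF1 complex can read, on either strand.
PRSS1: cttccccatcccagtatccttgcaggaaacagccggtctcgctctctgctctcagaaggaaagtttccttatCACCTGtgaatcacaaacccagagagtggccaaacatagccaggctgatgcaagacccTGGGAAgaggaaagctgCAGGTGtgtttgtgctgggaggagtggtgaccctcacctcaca
PRSS2: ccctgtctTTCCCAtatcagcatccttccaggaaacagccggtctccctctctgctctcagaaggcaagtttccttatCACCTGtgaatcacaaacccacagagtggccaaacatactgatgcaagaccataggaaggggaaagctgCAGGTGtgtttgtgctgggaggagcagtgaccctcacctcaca
Aligned over 256 columns, the 250 bases before the starts were 86.7% identical. Both hold 2 matches to CACCTG (178 to 173 and 103 to 98 bases before the start in PRSS1, 172 to 167 and 103 to 98 in PRSS2) and 1 to TTCCCA, at different places (120 to 115 in PRSS1, 242 to 237 in PRSS2). CACCTG occurred in 6 of the 7 members' 250 bases, all but PNLIP, and in 17.5% of 35116 RefSeq start regions of that length. TTCCCA occurred in PRSS1, PRSS2 and SPINK1 and in 20.9% of all. TNAAGTG, a core that NKX2 factors can bind, searched on both strands, occurred in CPA1 and PNLIP and in 8.73% of all. Such matches describe the letters only.

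The acinar identity of the cultures was checked by acinar factors and products. PTF1A had 2 to 10 counts and RBPJL 0 to 4 counts in every library, too few for a test in either experiment. Among acinar products beside the members, CELA3A, CTRL, AMY1A, AMY2A and CUZD1 had 0 counts in all NKX2-2 libraries, and CELA1, CTRL, AMY1A, SYCN and CUZD1 in all CLEC16A libraries. Of the remaining factors, NR5A2 fell by 0.36 in the NKX2-2 knockout (edgeR adjusted p = 0.0222, and 0.0816 to 0.0933 without knockout replicate 2, wild-type replicate 1 or wild-type replicate 2) and rose by 0.96 in the CLEC16A knockout (1.58e-09). BHLHA15, also called MIST1, a factor of secretory cells, was at -0.54 (edgeR adjusted p = 0.216) and rose by 1.38 in the CLEC16A knockout (8.16e-06). GATA4 fell by 0.65 in the NKX2-2 knockout (edgeR adjusted p = 0.00266) and by 0.18 in the CLEC16A knockout (0.0395). That second call was lost without knockout replicate 2 or 3 or wild-type replicate 1 or 3 (edgeR adjusted p = 0.0629 to 0.213) and with limma on log2(TPM + 1) (0.319).

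**Figure D5:**
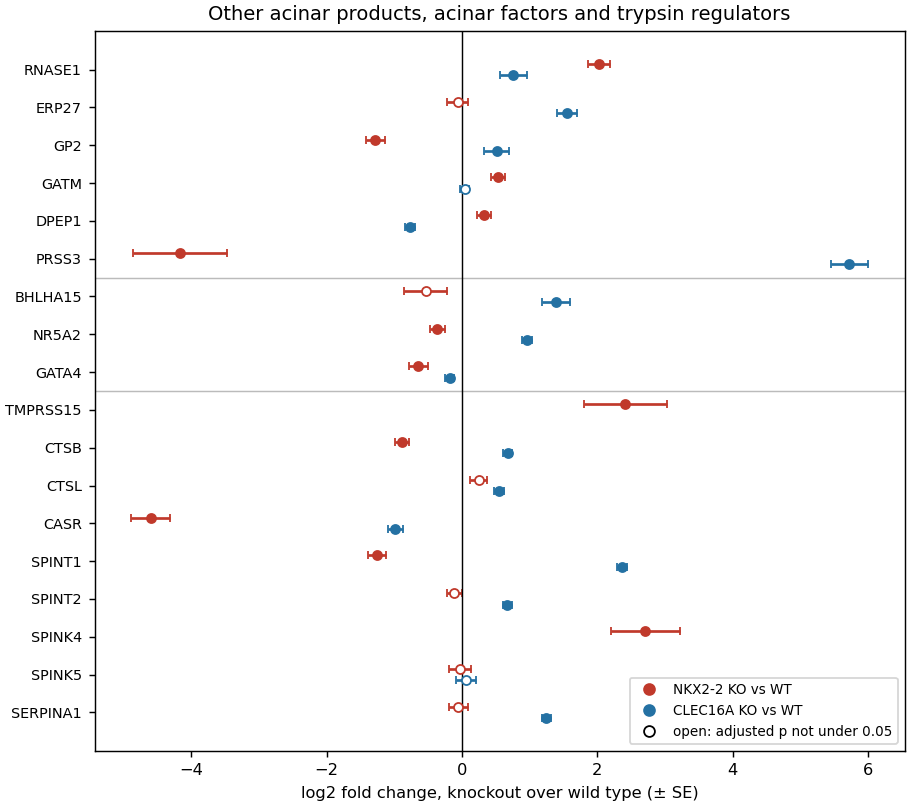
Log2 fold change of knockout over wild type with its SE from edgeR for acinar products that are no members (top), acinar factors (middle) and genes of trypsin activation and inhibition (bottom), in the NKX2-2 (red) and CLEC16A (blue) experiments; open points did not pass and genes too low for a test have no point. PRSS3, GP2, NR5A2, SPINT1 and CTSB pass as lower in the NKX2-2 and as higher in the CLEC16A knockout; single libraries end the calls of GP2 in the CLEC16A and of NR5A2 in the NKX2-2 experiment.

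Of the 30 other acinar products, 16 were tested in the NKX2-2 experiment, where 5 rose, 2 fell and 9 did not pass, with a median of 0.47. RNASE1, the pancreatic ribonuclease, rose by 2.03 ± 0.16 (edgeR adjusted p = 7.67e-07) and GATM, an enzyme of creatine synthesis, by 0.53. GP2, the main membrane glycoprotein of zymogen granules, fell by 1.28 ± 0.14 (edgeR adjusted p = 1.48e-05). Of 18 tested with CLEC16A, 10 rose, 1 fell and 7 did not pass, with a median of 0.70. PRSS3 led, ERP27, a chaperone of the secretory pathway, rose by 1.55 ± 0.15, and DPEP1, a membrane dipeptidase, fell by 0.77 ± 0.07 (edgeR adjusted p = 4.3e-09). There GP2 was higher by 0.51 ± 0.18 (edgeR adjusted p = 0.025), a call lost without any 1 library but knockout replicate 3 (0.33 to 0.53; edgeR adjusted p = 0.0511 to 0.186).

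Genes that activate or restrain trypsin moved in both directions in the NKX2-2 knockout and mostly upward in the CLEC16A knockout. In the NKX2-2 experiment 2 of 9 tested rose, 3 fell and 4 did not pass. TMPRSS15, enteropeptidase, rose by 2.41 ± 0.61 from 10 counts in the 3 wild-type libraries to 50 in the knockout libraries (edgeR adjusted p = 0.00869). SPINK4, of the same inhibitor family as SPINK1, rose by 2.71 ± 0.51 from 12 to 75 counts (edgeR adjusted p = 0.0011). CASR, the calcium-sensing receptor, fell by 4.60 ± 0.28, SPINT1, a hepsin and matriptase inhibitor, by 1.25 ± 0.14, and CTSB, cathepsin B, which can activate trypsinogen, by 0.88 ± 0.10. SPINK5 (-0.03), SERPINA1 (-0.06), SPINT2 (-0.11) and CTSL (0.24) did not pass.

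In the CLEC16A experiment 5 of 7 tested genes of trypsin control rose, 1 fell and 1 did not pass. SPINT1 rose by 2.36 ± 0.07, SERPINA1, alpha-1-antitrypsin of liver and islets, by 1.24 ± 0.07, CTSB by 0.67 ± 0.07, SPINT2 by 0.67 ± 0.07 and CTSL, cathepsin L, which can inactivate trypsinogen, by 0.55 ± 0.07. CASR fell by 0.99 ± 0.11 (edgeR adjusted p = 1.75e-07), and SPINK5 was at 0.06. CTRC, SPINK2 and SPINK6 were too low for a test in both experiments, and TMPRSS15 and SPINK4 in the CLEC16A experiment. Of the 6 receptors by which acinar cells sense secretagogues, CCKAR had 0 counts in all libraries. In the NKX2-2 experiment 5 were tested, of which CHRM1 rose by 2.201 and CHRM3 fell by 1.57, with VIPR1 at -0.24 and SCTR at -0.14 not passing. In the CLEC16A experiment 4 were tested, of which VIPR1 rose by 2.56 and CCKBR fell by 4.24, with CHRM3 at -0.05 and SCTR at -0.01 not passing.

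Markers of other cell types moved with these comparisons, and their part in the members' changes was not tested. Islet hormone genes summed to 408.8 to 481.2 CPM in the NKX2-2 knockout against 1817 to 2357 in wild type (1 of 5 higher, 3 lower), and to 501.8 to 532.1 against 2629 to 2731 in the CLEC16A experiment (5 of 5 lower). Mesenchyme markers rose in the NKX2-2 knockout, 8 of 8, at 5928 to 6558 against 2361 to 2617 CPM, and 5 of 8 fell in the CLEC16A knockout, at 199.1 to 234.4 against 297.3 to 340.9. Endothelial markers were at 63.7 to 72.6 against 21.1 to 26.6 CPM in the NKX2-2 experiment (3 of 4 higher, 1 lower; the lower call, PECAM1, was lost without any 1 library, with edgeR adjusted p = 0.0586 to 0.113, and that of CDH5, 1 of the 3 higher, in 4 of 6 such fits, with 0.0605 to 0.0887) and at 10.4 to 13.5 against 20.3 to 22.1 in the CLEC16A experiment (1 higher, 2 lower). Duct markers were at 942.4 to 986.6 against 1001 to 1095 CPM (3 of 12 higher, 5 lower) and at 1277 to 1357 against 940.3 to 948.2 (11 higher, 1 lower). Intestinal markers were at 1381 to 1465 against 1688 to 1794 CPM (3 of 9 tested higher, 5 lower) and at 4343 to 5356 against 831.3 to 862.1 (9 of 10 higher). Liver markers were at 10040 to 12350 against 10010 to 11560 CPM (3 of 10 higher, 3 lower) and at 16600 to 18280 against 6513 to 6812 (8 of 10 higher). No marker of duct, liver, intestine, islet hormones, mesenchyme or endothelium was at 0 counts in either experiment.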

How the data were processed

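Bulk RNA-seq was measured in 12 libraries, 3 in each of 4 groups taken from the sample titles. The authors deposited raw counts per Ensembl gene and TPM in separate tables for each experiment. The submitters' processing notes name HISAT2 2.2.1, StringTie 2.1.7, fastp 0.22.0 and hg38. Read counter, annotation release and strandedness were not given in the sources used here. Pseudoautosomal genes were used without their 45 Y rows. Mitochondrial DNA genes took 7.05% to 10.2% of the counts in the NKX2-2 libraries and were at 0 in the CLEC16A libraries.

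Each knockout was tested against its own wild type on the counts with edgeR 4.0.16 (robust quasi-likelihood F test, TMM, filterByExpr, Benjamini-Hochberg over all genes tested, threshold 0.05) in R 4.3.3, and the difference of both effects as an interaction over the 12 libraries. CPM use TMM-scaled library sizes. TPM were tested with limma 3.58.1 on log2(TPM + 1), which understates changes of low genes, among genes with a mean of at least 0.5 TPM in a group. Alternatives were RLE and upper-quartile scaling, DESeq2 1.42.0, no filter, a filter of 1 CPM, a replicate block, one fit of 12 libraries, limma with a pseudocount of 0.1 or without a filter, summed paralog rows, each library left out and, chosen after seeing the data, no mitochondrial DNA genes.

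The members and the 12 lists of other genes were chosen with earlier results of these data known. Named were the 9 members, up to 4 tested genes with the smallest p per list and experiment, every gene of the lists of acinar factors and trypsin control, the 3 genes most like each member tested in both experiments (at least 5 CPM in a group), genes at 0 counts in a list, and PRSS3 as a paralog. Some items named by this rule are not reported here. SE is the size of the log2 change divided by the root of its F statistic. Replicates were compared by chi-square tests and all differed beyond sampling noise. The main edgeR fits and DESeq2 were also run on simulated counts, and limma on CPM of such counts without a filter. The other settings were not tried on simulated data.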

Additional observations from a re-analysis of the deposited data

Results flagged for a closer look

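For 4 members the effect of the NKX2-2 knockout and that of the CLEC16A knockout differed. The test was an interaction term in one edgeR fit of all 12 libraries with Benjamini-Hochberg adjustment. PRSS1 and SPINK1 did not pass it, and of all 20494 genes tested in that fit 38.2% passed. The NKX2-2 effect minus the CLEC16A effect on the log2 scale was 3.12 for CLPS (adjusted p = 2.72e-07), with effects of 3.70 and 0.58. It was 0.81 for PRSS2 (2.85e-05), with effects of 1.49 and 0.70 in the same direction. It was 1.39 for CPA1 (6.33e-06), with effects of 0.67 and -0.71, and 1.93 for CPB1 (0.000198), with effects of 1.22 and -0.70. All 4 passed in each of the 19 alternative fits.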

How the results depend on the processing

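In the NKX2-2 experiment 4 members passed, and 4 to 5 under alternatives, 5 in the 3 limma fits on TPM, which add PRSS1. In the CLEC16A experiment 3 members passed, and 2 to 4 under alternatives, 2 with paralog rows summed into 1 row; the 4th was CPB1 or, without CLEC16A wild-type replicate 1, SPINK1. With one fit of 12 libraries PRSS1 was lost and CPB1 gained. For the difference of effects 4 passed, and 5 in 5 alternatives that add PRSS1. Over the fits that leave out 1 library the members called numbered 4 (NKX2-2), 3 to 4 (CLEC16A) and 4 to 5 (difference). No call reversed; SPINK1 in the NKX2-2 experiment, never called, took the other sign in 5 of 18. Genes called in the NKX2-2 experiment numbered 5824, and 3247 with limma on log2(TPM + 1) without a filter. Limma on log2(TPM + 1) shifted the median of all genes in the CLEC16A experiment by -0.10 and gave 3132 higher and 4691 lower calls against 4732 and 4253, and upper-quartile scaling shifted that of the difference by 0.12 and gave 4703 and 3517 against 3648 and 4183. Of 2015 alternative values of named genes that are no members, 1930 kept direction and side of the threshold, 77 no longer passed and 8 newly passed; GATA4, GP2 and ONECUT1 in the CLEC16A experiment and DPEP1, NR5A2, LPL, CDH17, CDH5 and PECAM1 in the NKX2-2 experiment lost calls when single libraries were left out. The main fits did not pair samples by the numbers 1 to 3 in the titles. Deviations of same-numbered libraries correlated at 0.11, 0.03 and 0.32 (NKX2-2) and 0.01, 0.01 and -0.03 (CLEC16A). Those of different-numbered libraries correlated at -0.24 to 0.18 (NKX2-2) and -0.04 to 0.03 (CLEC16A). So few pairs cannot decide whether the numbers pair the samples. With the replicate block 4, 3 and 5 members passed in the NKX2-2 experiment, the CLEC16A experiment and the difference, and 8037 genes against 5824 in the NKX2-2 experiment. Low counts limit CTRB1, CTRB2, PNLIP and, in the NKX2-2 experiment, PRSS1. PRSS1 TPM there was 2.55 to 8.50, and which processing step set its counts apart was not tested.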
